A study of Mus musculus with 8 samples.

Results

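The collagen genes of the mouse embryonic ventricle were compared between hearts that had lost Rps19bp1 in cardiomyocytes and control hearts. They were taken as the rows on primary chromosomes whose symbol is Col, a number, a and a number, which gave 44 genes of the 52778 rows in the table. RNA sequencing had been done on dissected ventricles at embryonic day 11.5, with 4 libraries per group. The knockout libraries (cKO) came from embryos of the genotype Rps19bp1 fl/fl; Xmlc2-Cre +/−, in which the Cre driver is active in cardiomyocytes. The other cells of the ventricle, which make most fibrillar collagen, are not the cells this driver addresses, and both kinds of cell stand together in each library. The controls are called control embryos, and their flox and Cre alleles are not given in the sources used here. No drug or other treatment was applied to either group. Values are TPM, which divide reads by transcript length and scale every library to the same total, so levels of different genes can be set side by side on this scale.

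Collagens are secreted or membrane-bound proteins whose chains wind around each other into a stiff helix. Fibrillar collagens (types I, II, III, V, XI, XXIV and XXVII) form the tension-bearing fibrils of connective tissue. Type IV collagens build the network inside basement membranes, and FACIT collagens (fibril-associated collagens with interrupted triple helices) sit on the surface of fibrils. Type VI chains form beaded filaments, multiplexins bridge basement membranes and the matrix beyond them, and type VIII chains form networks of short helices. In the developing heart, collagens are made by endocardium, epicardium and the mesenchyme of the cushions and of the epicardial layer, and the ventricular wall holds little fibrillar matrix before fibroblasts arise. Chains are hydroxylated, glycosylated and folded in the endoplasmic reticulum with the help of the chaperone HSP47 (Serpinh1), trimmed outside the cell and cross-linked by lysyl oxidases.

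Rps19bp1, which encodes a nucleolar protein that binds the ribosomal protein RPS19, checked the labels. It stood at 15.2, 11.8, 13.7 and 19.2 TPM in cKO replicates 1 to 4 and at 34.7 to 44.2 TPM in the controls, and it was lower in cKO (log2 difference -1.37, limma adjusted p = 0.000508). Between 15336 and 15752 rows per library reached 1 TPM, and mitochondrial transcripts took 13.2 to 16.2% of TPM in cKO and 11.4 to 12.2% in control. Of the cardiomyocyte markers, 12 of 12 were above 1 TPM, and they summed to 49010 to 53710 TPM per library, so the defining genes of heart muscle were present. The labels differ among themselves: the genotype entry of every library reads as wild type, and an extraction text speaks of cultured cortical neurons. Titles and treatment field give knockout and control. The titles name the heart, and the series text alone names ventricles. The 4 libraries of a group are described as biological replicates, with nothing said of litters or of pooling. Whether they are independent embryos is therefore not known. The p-values set the group difference against the spread between these libraries.

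Collagen RNA was higher in the cKO ventricles. Class medians of the log2 difference ran from 0.02 for type IV to 0.50 for short-chain collagens. They rest on 2 to 8 tested genes each, and a difference between classes was not tested. Summed over the 44 genes, collagen RNA was 2467, 2366, 2433 and 2273 TPM in the cKO libraries and 2078, 1973, 2178 and 2163 TPM in the controls. Every cKO sum was above every control sum, and the ratio of the means was 1.14. The types I, III and V chains Col1a2, Col3a1 and Col5a2, the FACIT chain Col16a1, the short-chain network gene Col8a2 and Col26a1 rose in cKO. Each did so by a log2 difference between 0.33 and 0.63, and no tested collagen gene was called lower. Of the 3 most abundant collagen genes, Col4a1 and Col4a2 of the basement membrane differed by 0.02 and 0.03, and Col18a1 by 0.21 with groups that did not overlap; none of them was called.

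Of the 44 genes, 33 had a mean of at least 1 TPM over the 8 libraries and were tested with limma on log2(TPM + 1), and a gene was called at an adjusted p under 0.05. The called genes were 6 of the 33, all higher in cKO, where 2.16% of the 15541 rows tested were called higher. None was called lower, where 4.23% of all rows were, and 21 of the 33 had an unadjusted p under 0.05, as 23.7% of all rows did. Groups did not overlap, with every cKO library above every control library, for 13 genes, against 5.33% of all rows. For 0 genes every cKO library was below every control library, against 10.3% of all rows. The cKO mean of log2 values was the higher one for 30 of 33 collagen genes, as it was for 44.2% of all rows tested. The median log2 difference was 0.30 over the 33 genes and -0.02 over all rows. The collagen median was 0.19 with a pseudocount of 5 and 0.17 with no filter on low values. The split of calls over the whole table depended on the scaling: 33.8% of called rows were higher in cKO with TPM as deposited, 50.2% after quantile normalization, 44.0% after median-ratio scaling and 49.5% once mitochondrial and globin genes were taken out of the total. Under those 3 scalings, 30, 30 and 31 of the 33 collagen genes were the higher ones in cKO.

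**Figure D1:**
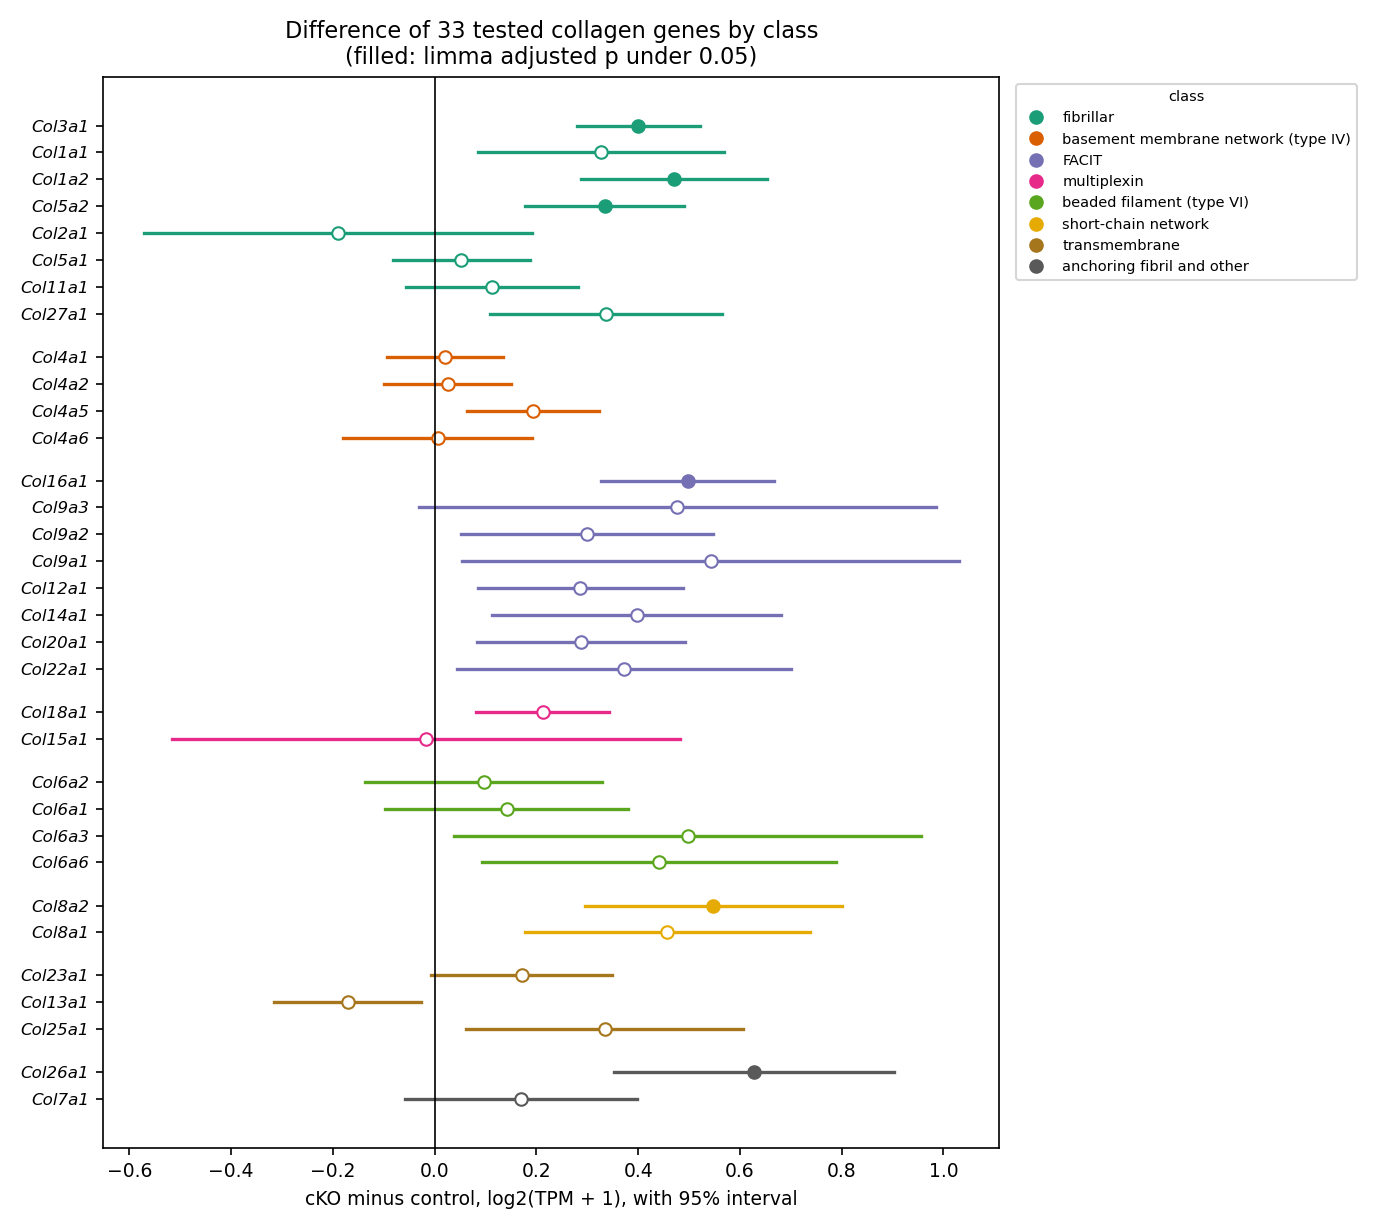
Log2 difference (cKO minus control, log2(TPM + 1)) of the 33 tested collagen genes, grouped and coloured by class; points are fitted differences, bars are 95% intervals (n = 4 libraries per group), and filled points mark a limma adjusted p under 0.05. The 6 filled points lie between 0.33 and 0.63, and the points of type IV collagen lie between 0.01 and 0.19.

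Single libraries bear on these counts. Leaving out cKO replicate 3 left 3 collagen genes called higher, and leaving out cKO replicate 4 gave 9. That last library had the lowest value of its group in 14 of the 33 genes and the highest in 2. Among controls, replicate 1 was lowest in 14 genes and replicate 2 in 13, while replicate 3 was highest in 14 and replicate 4 in 11. Col3a1 and Col16a1 were called with each of the 8 libraries left out and under each of the 11 other alternatives. With no filter on low values, when every row with signal in any library was tested, these were the 2 collagen genes called.

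The promoters of the called genes are shown because the genes changed in the same direction, although they code for chains of different molecules. RefSeq (GRCm38.p6) windows of the 250 bases before the gene start were at hand for Col3a1 (chr1:45311288-45311537), Col1a2 (chr6:4505368-4505617), Col16a1 (chr4:130047590-130047839) and Col8a2 (chr4:126286544-126286793), all on the plus strand. Each runs 5′ to 3′ and ends 1 base before the start that the RefSeq promoter table gives. Capitals mark matches, on either strand, to TATAAA (letters of the TATA box), CCAAT (the site bound by NF-Y) and GGGCGG (the core of a GC box). For Col16a1 that start lies downstream of the start of its row in the TPM table, so that the last 23 bases of the window fall inside the row.
Col3a1: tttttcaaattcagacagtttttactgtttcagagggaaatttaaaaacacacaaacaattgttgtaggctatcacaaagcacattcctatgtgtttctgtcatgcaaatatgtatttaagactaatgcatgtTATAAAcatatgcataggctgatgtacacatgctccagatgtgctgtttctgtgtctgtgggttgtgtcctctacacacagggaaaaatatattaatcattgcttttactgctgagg
Col1a2: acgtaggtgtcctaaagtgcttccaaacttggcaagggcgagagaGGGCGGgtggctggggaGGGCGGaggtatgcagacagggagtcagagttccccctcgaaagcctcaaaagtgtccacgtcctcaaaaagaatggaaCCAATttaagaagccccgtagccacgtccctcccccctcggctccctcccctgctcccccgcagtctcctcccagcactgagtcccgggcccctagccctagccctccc
Col16a1: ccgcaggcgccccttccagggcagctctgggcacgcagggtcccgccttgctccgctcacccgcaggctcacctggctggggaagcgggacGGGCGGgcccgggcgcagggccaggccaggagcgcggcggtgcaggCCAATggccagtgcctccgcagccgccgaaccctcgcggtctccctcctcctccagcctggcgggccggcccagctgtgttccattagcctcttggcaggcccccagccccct
Col8a2: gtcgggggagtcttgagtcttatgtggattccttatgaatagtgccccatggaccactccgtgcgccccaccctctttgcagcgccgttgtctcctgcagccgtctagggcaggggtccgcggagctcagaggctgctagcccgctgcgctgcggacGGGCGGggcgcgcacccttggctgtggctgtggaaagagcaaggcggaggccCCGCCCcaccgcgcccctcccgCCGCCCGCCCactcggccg

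Of these 4 windows, the one of Col3a1 alone held a TATAAA, 117 bases before the RefSeq start, and it had the lowest GC content, 35.2%. The window of Col1a2 (62.0% GC) held 1 CCAAT at 109 bases and 2 GGGCGG. The window of Col16a1 (75.6% GC) held 1 CCAAT at 113 bases and 1 GGGCGG, and that of Col8a2 (70% GC) held 4 GGGCGG, of which a pair shares 2 bases. Over all 32851 windows of the table the median GC content was 52.4%, and the TATA box, the CCAAT motif and the GC box were found in 12.4, 33.8 and 32.7% of them. Of the 25 tested collagen genes with a window, 2 held TATAAA, 10 CCAAT and 17 GGGCGG, each counted at any place in the window. The 4 called genes share no single one of these 3 motifs. A match describes letters in this window and says nothing about binding.

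Fibrillar collagens held 3 of the 6 called genes. The class had 11 genes, of which 8 were tested, with a median log2 difference of 0.33 (0.11 with no filter). Their summed TPM was 892 ± 54.4 in cKO and 727 ± 25.5 in control (SD, n = 4 each), a ratio of 1.23. Coordinates below are on GRCm38 as the table lists them, and library values are given in the order of replicates 1 to 4. Col3a1, the single chain of type III collagen of compliant tissues (chr1:45311538-45349706, plus strand), was measured at 312, 287, 289 and 284 TPM in the cKO libraries and 223, 205, 223 and 236 TPM in the controls. The 4 cKO libraries lay close together and above every control. The means were 293 ± 12.8 TPM in cKO and 222 ± 13.0 TPM in control (SD, n = 4 each; log2 difference 0.40, SE 0.054, limma adjusted p = 0.00459).

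Type I collagen, the main protein of stiff fibrils, is built from the chains of Col1a1 and Col1a2. Col1a2 (chr6:4505618-4541543, plus strand) stood at 165, 142, 157 and 125 TPM in the cKO libraries and 104, 99.8, 112 and 105 TPM in the controls. The groups did not overlap, and the lowest cKO value was replicate 4. The means were 147 ± 17.9 TPM in cKO and 105 ± 5.17 TPM in control (SD, n = 4 each; log2 difference 0.47, SE 0.082, limma adjusted p = 0.0121), and with no filter on low values its adjusted p was 0.0573. Col1a1 (chr11:94936224-94953042, plus strand), its partner chain, stood at 176, 155, 153 and 119.8 TPM in the cKO libraries and 128, 111, 109 and 130.2 TPM in the controls. In cKO replicate 4 Col1a1 lay among the controls, while the other 3 cKO libraries were above them all. Col1a1 did not pass the test with all 8 libraries (log2 difference 0.33, 95% interval 0.09 to 0.57, limma adjusted p = 0.104), and without cKO replicate 4 its difference was 0.43 with an adjusted p of 0.0191.

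Col5a2 (chr1:45374331-45503282, minus strand) encodes a chain of type V collagen, which starts fibrils and limits their width. It was measured at 122, 127, 125 and 109 TPM in the cKO libraries and 107, 96.5, 87.4 and 92.0 TPM in the controls. Every cKO library was above every control, with a narrow gap between cKO replicate 4 and control replicate 1. The means were 121 ± 8.04 TPM in cKO and 95.8 ± 8.46 TPM in control (SD, n = 4 each; log2 difference 0.33, SE 0.071, limma adjusted p = 0.0259). This was the least stable of the 6 calls: the adjusted p was between 0.0564 and 0.0714 when cKO replicate 1, 2 or 3 or control replicate 2, 3 or 4 was left out, 0.0513 without the variance trend and 0.0853 with no filter. Col5a1, which encodes the other main chain of the same molecule, differed little (log2 difference 0.05, 95% interval -0.08 to 0.19, limma adjusted p = 0.653).

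Col2a1 (chr15:97975602-98004724, minus strand), the fibrillar collagen of cartilage that is also made in cushion mesenchyme, had the one negative difference of the class. It was measured at 70.1, 116, 60.9 and 95.8 TPM in the cKO libraries and 90.9, 96.3, 106 and 87.7 TPM in the controls, and the cKO libraries were both the lowest and the highest of the 8. It did not pass the test (log2 difference -0.19, 95% interval -0.57 to 0.19, limma adjusted p = 0.552). Of the 2 remaining tested fibrillar genes, Col11a1, whose chain joins type II fibrils, differed by 0.11 (limma adjusted p = 0.411). Col27a1 did not overlap between groups, at 5.92 to 6.35 TPM in cKO and 3.92 to 5.52 TPM in control, and missed the threshold (0.34, limma adjusted p = 0.0823).

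**Figure D2:**
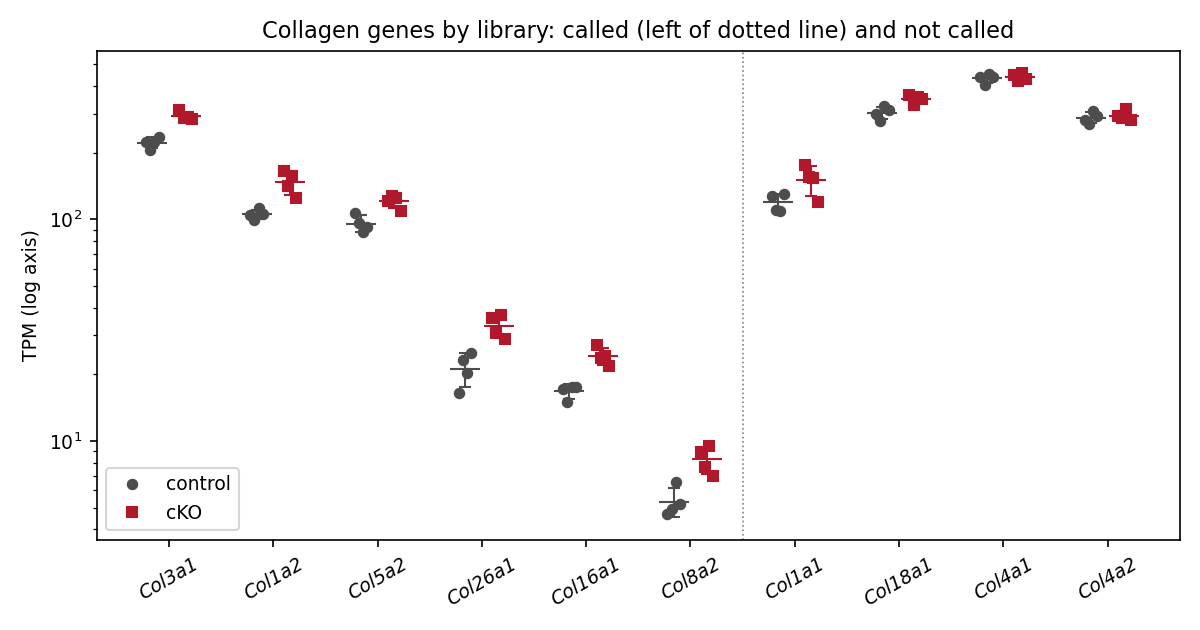
TPM per library (log axis) of the 6 called collagen genes, left of the dotted line, and of Col1a1, Col18a1, Col4a1 and Col4a2; points are libraries, horizontal lines are group means and vertical bars are SD (n = 4 each). The groups stand apart in the 6 called genes and in Col18a1, and overlap in Col4a1, Col4a2 and, by cKO replicate 4, in Col1a1.

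Type IV collagen, the class with the largest RNA level in the controls, had the lowest median difference. Of its 6 genes, 4 were tested and 0 were called, with a median log2 difference of 0.02 and a range of 0.01 to 0.19. The median moved by more than 1.5 times, to 0.0145 without control replicate 2, 0.0506 without control replicate 3, 0.038 without cKO replicate 2 or 4, 0.0136 with array weights and 0.0405 to 0.0757 under the 3 other scalings. The class summed to 856 ± 31.3 TPM in cKO and 833 ± 34.6 TPM in control (SD, n = 4 each), a ratio of 1.03. Its share of all collagen RNA was 35.9% (34.8 to 36.9%) in cKO and 39.7% (38.9 to 40.1%) in control. The fibrillar share was 37.4% (36.0 to 39.1%) in cKO and 34.6% (33.5 to 35.6%) in control. For both shares the groups did not overlap.

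Col4a1 (chr8:11198423-11312889, minus strand) and Col4a2 (chr8:11312805-11449287, plus strand) encode the chains of the ubiquitous type IV network. Col4a1 was measured at 447, 422, 458 and 431 TPM in the cKO libraries and 437, 404, 454 and 439 TPM in the controls. Its groups overlapped throughout (log2 difference 0.02, 95% interval -0.09 to 0.13, limma adjusted p = 0.853). Col4a2 was measured at 292, 286, 314 and 279.9 TPM in the cKO libraries and 280.1, 269, 308 and 294 TPM in the controls. It overlapped in the same way (log2 difference 0.03, 95% interval -0.10 to 0.15, limma adjusted p = 0.827). The upper limits of these intervals, 0.13 and 0.15, lie below the differences of all 6 called genes, which were picked by the test in these same data. The differences of the uncalled fibrillar genes Col5a1 (0.05) and Col11a1 (0.11) lie within both intervals. The pair stand head to head on opposite strands, and the rows overlap by 85 bases at their starts. Col4a5 and Col4a6, another head-to-head pair whose rows lie 1274 bases apart on the X chromosome, code for chains of more specialised basement membranes. Col4a5 was at 88.8 to 103 TPM in cKO and 82.0 to 88.9 TPM in control, overlapping by 1 library of each group. It did not pass the test (log2 difference 0.19, 95% interval 0.06 to 0.32, limma adjusted p = 0.0793), although its adjusted p was 0.0421 without cKO replicate 4 and 0.0423 after quantile normalization. Col4a6, at 23.3 to 30.8 TPM in cKO and 24.5 to 27.1 TPM in control, overlapped fully (log2 difference 0.01, 95% interval -0.18 to 0.19, limma adjusted p = 0.975). The test of a difference between classes was not made, since the genes of a class are not replicates.

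**Figure D3:**
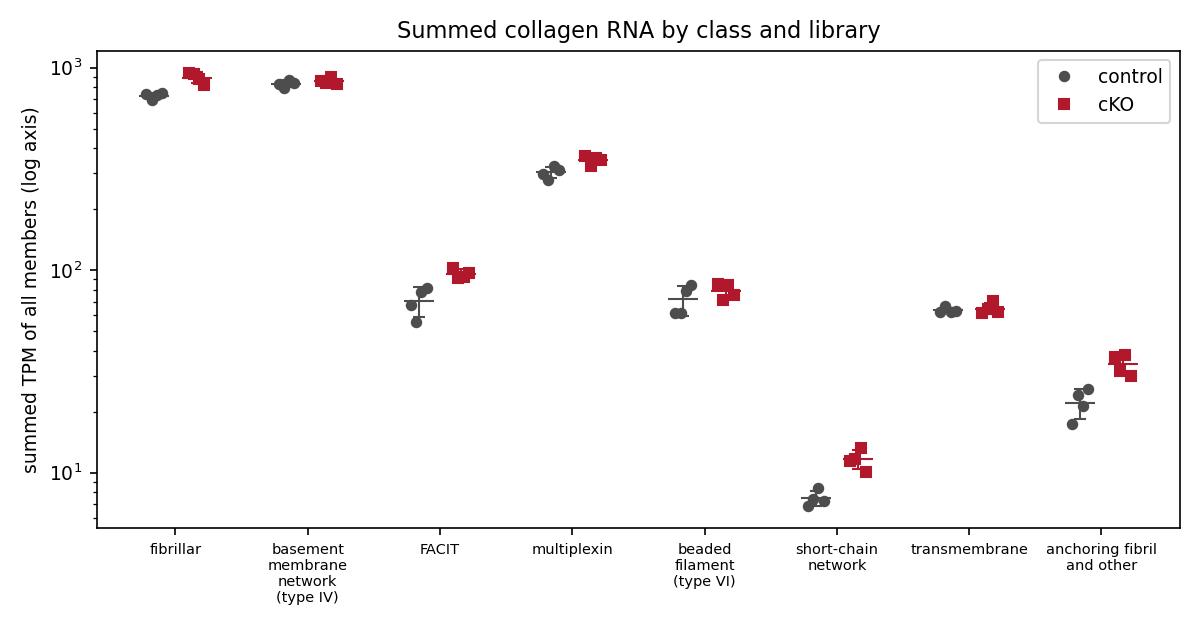
Summed TPM of all genes of each collagen class in each library (log axis); points are libraries, horizontal lines are group means and vertical bars are SD (n = 4 each). Fibrillar, FACIT, multiplexin, short-chain network and other collagens stand higher in every cKO library, and type IV, type VI and transmembrane collagens overlap between groups.

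FACIT collagens were low in level, and each tested gene had the higher mean in cKO. The table held 9 of them, 8 were tested and 1 was called, where 2.16% of all rows were called higher. For 4 genes every cKO library was above every control library, against 5.33% of all rows. The median log2 difference was 0.39 (0.23 with a pseudocount of 5), with a range of 0.29 to 0.54. The class summed to 95.95 ± 5.15 TPM in cKO and 70.7 ± 11.8 TPM in control (SD, n = 4 each), a ratio of 1.36. Col16a1 (chr4:130047817-130099277, plus strand), whose product links fibrils and microfibrils, was measured at 27.0, 23.7, 24.2 and 21.7 TPM in the cKO libraries and 17.2, 15.0, 17.6 and 17.5 TPM in the controls. The groups were far apart relative to their spread, with means of 24.1 ± 2.18 TPM in cKO and 16.8 ± 1.25 TPM in control (SD, n = 4 each; log2 difference 0.50, SE 0.077, limma adjusted p = 0.00772). Its row overlaps 2 rows on the opposite strand, of which the higher, Gm46871, was at a mean of 0.592 TPM.

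The remaining FACIT genes missed the threshold. Col9a3, Col9a1 and Col9a2 encode the chains of type IX collagen, which decorates type II fibrils in cartilage and in the vitreous of the eye. Col9a3 was measured at 19.8, 16.9, 15.6 and 20.4 TPM in the cKO libraries and 14.7, 6.74, 16.1 and 15.9 TPM in the controls. Control replicate 2 was far below the other controls, and the other 3 controls overlapped with the cKO libraries (log2 difference 0.48, 95% interval -0.03 to 0.98, limma adjusted p = 0.238). Col9a1 differed by 0.54 (limma adjusted p = 0.17) and Col9a2 by 0.30 (limma adjusted p = 0.141), with overlapping groups in both. Control replicate 2 was also the lowest control for Col9a1, at 6.00 TPM against 9.12 to 14.6 TPM, but not for Col9a2. Groups did not overlap for Col12a1 (0.29, limma adjusted p = 0.091), Col14a1 (0.40, limma adjusted p = 0.0954) and Col20a1 (0.29, limma adjusted p = 0.0939). Col12a1 and Col14a1 encode fibril surface proteins of tendon and skin. Col14a1 was called without cKO replicate 4, where its difference was 0.50 with an adjusted p of 0.0344. Col22a1, a collagen of tissue junctions such as those of muscle and tendon, differed by 0.37 (limma adjusted p = 0.162).

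The multiplexin class had 2 genes, both tested and neither called, with a median log2 difference of 0.10. With 2 genes this median rested on single libraries: it was 0.0138, 0.168 and 0.0641 without cKO replicates 1, 2 and 3, and 0.0559, 0.0312 and 0.191 without control replicates 1, 2 and 4. Col18a1 (chr10:77052178-77166530, minus strand), the multiplexin whose C-terminal fragment is endostatin, ranked 2 by level among the collagen genes. It was measured at 366, 327, 358 and 351 TPM in the cKO libraries and 298, 277, 324 and 310.1 TPM in the controls. Every cKO library was above every control with a narrow gap between cKO replicate 2 and control replicate 3. The difference missed the threshold (log2 difference 0.21, 95% interval 0.08 to 0.34, limma adjusted p = 0.0615). It passed under quantile normalization (adjusted p = 0.0416), median-ratio scaling (0.0440), a total free of mitochondrial and globin genes (0.0432) and removal of the GC and length trend (0.0302). Col15a1, the other multiplexin, was at the edge of the filter with 1.63, 0.549, 1.18 and 0.596 TPM in the cKO libraries and 0.671, 0.622, 0.949 and 1.82 TPM in the controls. It varied more between libraries of a group than any other tested collagen gene, with a coefficient of variation of 52.2% in cKO and 54.5% in control, and gave no direction (log2 difference -0.02, 95% interval -0.52 to 0.48, limma adjusted p = 0.974).

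Type VI collagen, a filament that ties cells to the matrix around them, had 6 genes, of which 4 were tested and 0 called, with a median log2 difference of 0.29. The median was 0.139 with a pseudocount of 5 and 0.119 with no filter or with a mean of at least 5 TPM. Col6a2 was measured at 45.0, 38.6, 45.4 and 41.1 TPM in the cKO libraries and 33.2, 36.0, 44.9 and 45.9 TPM in the controls. Col6a1 was measured at 32.7, 28.2, 33.1 and 28.9 TPM in the cKO libraries and 25.8, 22.8, 30.1 and 33.1 TPM in the controls. In both genes control replicates 3 and 4 lay at the level of the cKO libraries and control replicates 1 and 2 below it. Neither passed the test: Col6a2 differed by 0.10 (95% interval -0.14 to 0.33, limma adjusted p = 0.625) and Col6a1 by 0.14 (-0.10 to 0.38, limma adjusted p = 0.468). Col6a3, whose chain completes the classical molecule, differed by 0.50 (limma adjusted p = 0.179) at 2.88 to 5.52 TPM in cKO and 1.78 to 4.07 TPM in control. Col6a6 differed by 0.44 (limma adjusted p = 0.125).

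The short-chain network collagens of type VIII, made by endothelial and smooth muscle cells among others, had 3 genes in their class with Col10a1. Of these 2 were tested and 1 was called, with a median log2 difference of 0.50 (0.29 with a pseudocount of 5) and a ratio of summed TPM of 1.55. Col8a2 (chr4:126286794-126314330, plus strand) was measured at 8.94, 7.65, 9.49 and 6.99 TPM in the cKO libraries and 4.69, 4.97, 6.52 and 5.19 TPM in the controls. The lowest cKO value was above the highest control value by less than the spread within either group. The means were 8.27 ± 1.15 TPM in cKO and 5.34 ± 0.810 TPM in control (SD, n = 4 each; log2 difference 0.55, SE 0.11, limma adjusted p = 0.0242). The adjusted p was between 0.0522 and 0.0684 when cKO replicate 1 or 3 or control replicate 1, 2 or 4 was left out, and 0.0859 with no filter. Its partner Col8a1 was measured at 2.53, 4.06, 3.67 and 3.01 TPM in the cKO libraries and 2.16, 2.44, 1.87 and 2.02 TPM in the controls. Its groups did not overlap either, yet it missed the threshold (log2 difference 0.46, 95% interval 0.18 to 0.74, limma adjusted p = 0.0606), and without cKO replicate 1 its adjusted p was 0.0481.

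Transmembrane collagens, which span the plasma membrane and can be shed from it, showed no common direction. Of 4 genes, 3 were tested and 0 called, with a median log2 difference of 0.17. The median was 0.106 without control replicate 1, 0.0116 with no filter and -0.000283 with a mean of at least 5 TPM. Col23a1 was measured at 33.8, 36.7, 40.9 and 34.6 TPM in the cKO libraries and 28.0, 34.6, 32.4 and 34.3 TPM in the controls, with overlapping groups (log2 difference 0.17, 95% interval -0.01 to 0.35, limma adjusted p = 0.229). Col13a1, a collagen of cell adhesion sites, was measured at 24.9, 25.6, 27.0 and 25.6 TPM in the cKO libraries and 32.4, 29.8, 27.7 and 26.7 TPM in the controls. Its mean was lower in cKO, with the highest cKO value just above the lowest control value, and it did not pass the test (log2 difference -0.17, 95% interval -0.32 to -0.03, limma adjusted p = 0.145). Its row overlaps 4 rows on the opposite strand, the highest of them, Gm40674, at a mean of 2.45 TPM. Col25a1, a membrane collagen of neurons and developing muscle, differed by 0.33 (limma adjusted p = 0.136).

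The class of anchoring fibril and other collagens had 3 genes, of which 2 were tested and 1 was called, with a median log2 difference of 0.40 (0.169 with no filter, and 0.63 with a mean of at least 5 TPM, which left Col26a1 alone). Col26a1 (chr5:136741759-136883376, minus strand), a short collagen first described in testis and ovary, had the largest log2 difference of the tested collagen genes. It was measured at 36.0, 30.8, 37.0 and 28.9 TPM in the cKO libraries and 16.5, 23.1, 20.3 and 25.1 TPM in the controls. The groups did not overlap, and control replicate 1 was the lowest of the 8 libraries. The means were 33.2 ± 3.93 TPM in cKO and 21.3 ± 3.72 TPM in control (SD, n = 4 each; log2 difference 0.63, SE 0.12, limma adjusted p = 0.0203). The adjusted p was between 0.0571 and 0.0593 when cKO replicate 1 or 3 or control replicate 3 was left out, and 0.0849 with no filter. Col7a1, which encodes the anchoring fibrils of skin, was measured at 1.23, 1.06, 1.10 and 1.18 TPM in the cKO libraries and 0.872, 0.924, 0.910 and 0.916 TPM in the controls. Its groups did not overlap, with all values near 1 TPM, and it did not pass the test (log2 difference 0.17, 95% interval -0.06 to 0.40, limma adjusted p = 0.358).

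The 11 collagen genes under the filter were not tested. Col11a2 (mean 0.854 TPM), Col4a4 (0.753), Col24a1 (0.389), Col4a3 (0.322) and Col17a1 (0.275) were detected at low levels. Col17a1 was lower in every cKO library than in any control, at 0.165 to 0.238 TPM in cKO and 0.276 to 0.379 TPM in control. Col5a3, Col19a1, Col6a5, Col6a4, Col10a1 and Col28a1 had means under 0.1 TPM, and the highest value of any of the 11 genes in any library was 1.13 TPM. The genes nearest to the limit on its other side were Col15a1 (mean 1.00 TPM) and Col7a1 (1.02 TPM). A further 5 collagen rows on alternate scaffolds stood at 0 in every library and were left out.

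Chains that share a molecule, and Col3a1 with Col1a1, whose products join in 1 fibril, were compared as ratios within each library, which do not depend on the scaling of the library. There were 7 ratios, each compared by enumerating the 70 ways to split the libraries (exact permutation, two-sided), which can give no p below 0.0286. The Col5a1 to Col5a2 ratio was 0.680, 0.639, 0.618 and 0.680 in the cKO libraries and 0.694, 0.721, 0.895 and 0.898 in the controls. Every cKO ratio was below every control ratio (mean 0.654 ± 0.031 in cKO and 0.802 ± 0.109 in control, SD, n = 4 each, exact permutation p = 0.0286). After Benjamini-Hochberg adjustment over the 7 ratios its p was 0.200. The Col6a3 to Col6a1 ratio was 0.134 ± 0.0278 in cKO and 0.0943 ± 0.0225 in control (n = 4 each, exact permutation p = 0.0571, adjusted 0.200), with overlapping groups. The Col4a1 to Col4a2 ratio was 1.50 ± 0.0392 in cKO and 1.51 ± 0.0369 in control (n = 4 each, exact permutation p = 0.857). That ratio had the smallest log2 difference of the 7. The Col1a1 to Col1a2 ratio was 1.02 ± 0.0652 in cKO and 1.14 ± 0.122 in control (n = 4 each, exact permutation p = 0.143). The ratios Col3a1 to Col1a1, Col6a1 to Col6a2 and Col9a1 to Col9a3 had exact permutation p-values of 0.571, 0.514 and 0.657.

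**Figure D4:**
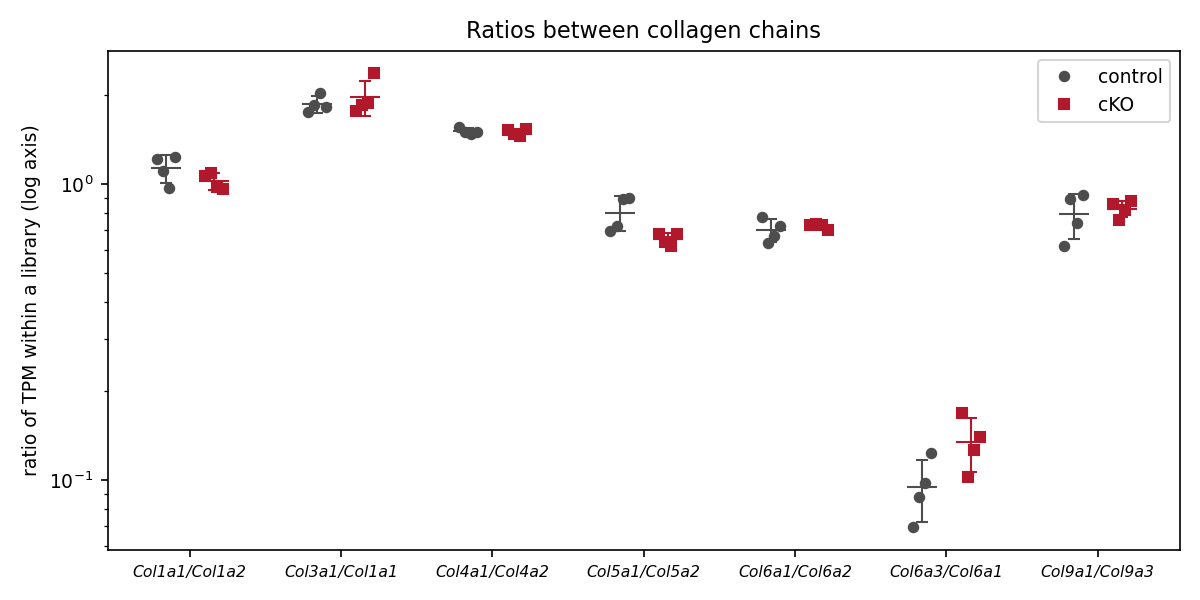
Ratio of TPM between collagen chains of 1 molecule or fibril within each library, 1 position per ratio on a log axis; points are libraries, horizontal lines are group means and vertical bars are SD (n = 4 each). The Col5a1 to Col5a2 ratios of cKO (0.618 to 0.680) lie below those of control (0.694 to 0.898), and the other 6 ratios overlap between groups.

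The genes that modify, export, trim, cross-link, bind and degrade collagen were followed through a list of 94 genes. Of these, 84 were tested, 8 were called higher and 1 lower, beside 2.16 and 4.23% of all rows, and the median log2 difference was 0.14. The mean was higher in cKO for 67 of the 84, beside 44.2% of all rows. The enzymes and chaperones that make the helix gave 1 call in 20 genes, with a median of 0.05. Serpinh1, the collagen chaperone, had means of 1047 TPM in cKO and 1025 TPM in control (log2 difference 0.03, 95% interval -0.12 to 0.18, limma adjusted p = 0.832). P4ha1, a catalytic subunit of prolyl hydroxylase, had means of 50.0 and 47.5 TPM (0.07, -0.11 to 0.25, limma adjusted p = 0.658). The called gene of this step was Sparc, a matrix protein that binds collagen on its way out of the cell, at 1016 ± 52.2 TPM in cKO and 856 ± 39.4 TPM in control (SD, n = 4 each; 0.25, limma adjusted p = 0.0331). Of the export genes, 0 of 9 were called, with a median of 0.01.

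Partners of the assembled fibril stood at the other end. All 11 of them were tested and had the higher mean in cKO, as 44.2% of all rows did. Of the 11, 4 were called higher, beside 2.16% of all rows, and the median was 0.50. Dcn, the proteoglycan decorin on the surface of fibrils, rose from 43.1 ± 3.15 TPM in control to 62.5 ± 8.25 TPM in cKO (mean ± SD, n = 4 each; log2 difference 0.52, limma adjusted p = 0.0122). Ogn, a small proteoglycan of the same family, rose from 3.43 ± 0.372 to 7.86 ± 1.95 TPM (0.98, limma adjusted p = 0.00619), and its row overlaps that of Cenpp. Thbs1, a matrix glycoprotein that binds collagen and TGF-beta, rose from 56.8 ± 9.04 to 85.3 ± 11.3 TPM (0.58, limma adjusted p = 0.0274). Fn1, the fibronectin on which fibrils are laid down, rose from 665.5 ± 61.7 to 875 ± 98.8 TPM (0.39, limma adjusted p = 0.0355).

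Among the genes of propeptide trimming, 1 of 6 tested was called higher, where 2.16% of all rows were. That gene, Pcolce, which enhances the C-proteinase, rose from 128.5 ± 9.75 to 158 ± 11.6 TPM (0.30, limma adjusted p = 0.0345). Of 6 tested cross-linking genes 0 were called. Lox, lysyl oxidase, had means of 9.49 TPM in cKO and 6.45 TPM in control (0.51, 95% interval 0.11 to 0.90, limma adjusted p = 0.12). Of 10 tested breakdown genes, 2 were called higher and 1 lower, beside 2.16 and 4.23% of all rows. Mmp2, a gelatinase, rose from 75.2 ± 14.8 to 105 ± 10.3 TPM (0.49, limma adjusted p = 0.0493), with a row that overlaps Gm45472. Reck, an inhibitor of such proteases, rose from 16.1 ± 0.951 to 19.4 ± 1.07 TPM (0.26, limma adjusted p = 0.038), and Mmp15, a membrane-bound protease, fell from 171 ± 5.68 to 143 ± 6.32 TPM (-0.26, limma adjusted p = 0.0154). Collagen receptors (7 tested, median 0.08) and the laminins, nidogens and proteoglycans of the basement membrane (15 tested, median 0.13) gave 0 calls. The count of 8 higher rested on single libraries: it was 2 when cKO replicate 1, cKO replicate 2 or control replicate 1 was left out, and 3 when cKO replicate 3 or control replicate 2 was. Leaving out control replicate 3 gave 4, and leaving out cKO replicate 4 gave 11. Ogn was called higher in 8 of 8 of these fits and Dcn in 8, Thbs1 in 5, Pcolce and Reck in 2, and Fn1, Sparc and Mmp2 in 1. Mmp2, whose adjusted p was nearest to the threshold, was also lost with a pseudocount of 0.1, with array weights and without the variance trend. With no filter Ogn alone was called higher, and without the variance trend Ogn and Dcn. The count of 1 lower became 2 when cKO replicate 2 was left out and 0 when control replicate 3 was.

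**Figure D5:**
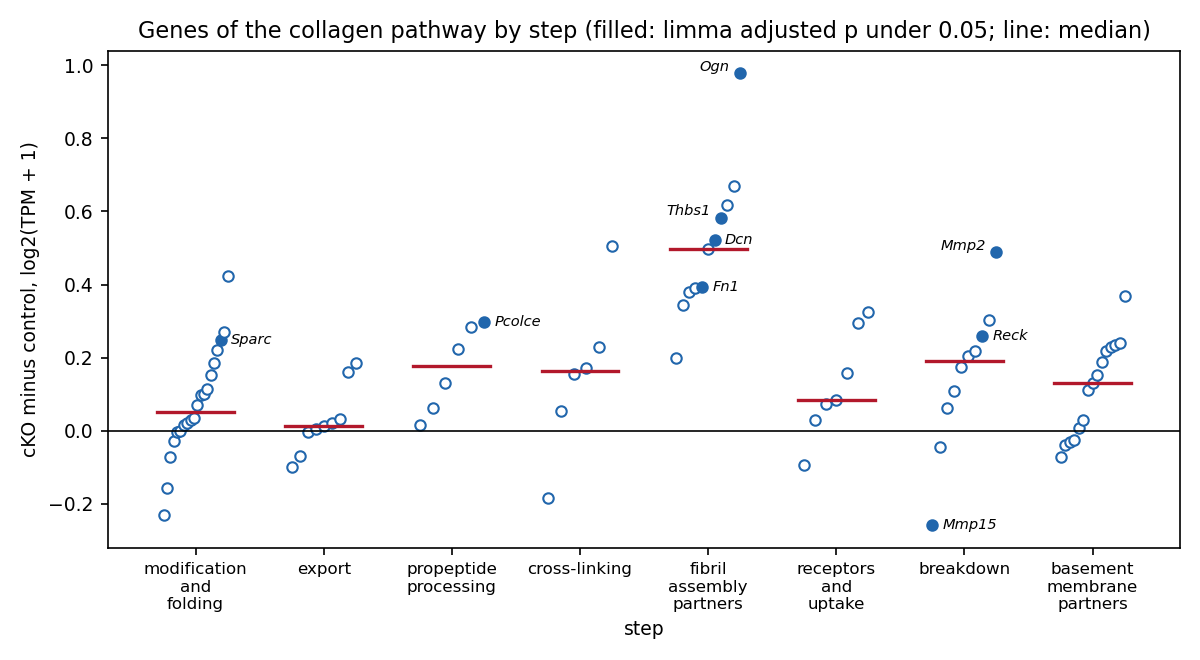
Log2 difference (cKO minus control, log2(TPM + 1)) of the 84 tested genes of collagen synthesis, assembly and turnover by step; points are genes, filled ones have a limma adjusted p under 0.05, and red lines are medians. The median is 0.50 for the partners of the fibril and between 0.01 and 0.19 for the other 7 steps.

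Markers of the cells that make collagen were measured in the same libraries. Of all rows tested, 2.16% were called higher and 4.23% lower, and 44.2% had the higher mean in cKO. In bulk tissue, fewer or more cells of a type and less or more RNA per cell cannot be told apart. Of 14 mesenchyme and fibroblast markers, all tested, 13 had the higher mean in cKO, 3 were called higher (Pdgfra, Dcn and Ogn) and 1 lower (Fbln1), and their sum was 1840 to 2018 TPM in cKO and 1542 to 1816 TPM in control. Those sums did not overlap between groups, but without Vim, which gave 1475 of the mean of 1895 TPM in cKO, they did, at 390.3 to 448 and 302 to 394 TPM. Of 11 epicardial markers, 10 were on the higher side and 4 were called higher (Wt1, Tbx18, Tcf21 and Upk3b), with sums of 500.1 to 616.9 TPM in cKO and 446.5 to 501.9 TPM in control. Of 12 endocardial and endothelial markers, 10 had the higher mean in cKO and 0 were called. Their sums were 869 to 987 TPM in cKO and 815 to 867.5 TPM in control. These did not overlap either, and without their most abundant gene, Cdh5, they overlapped, at 709 to 816 and 666 to 720.5 TPM. Of 12 cardiomyocyte markers, 10 had the lower mean in cKO and 0 were called. Their sums overlapped, at 49010 to 51490 TPM in cKO and 49440 to 53710 TPM in control. Groups did not overlap for Tnni1 and Myh6, lower in cKO, against 10.3% of all rows. The same held for Nppa, higher in cKO, against 5.33% of all rows. The controls were uneven for the called marker Pdgfra, at 15.3, 15.4, 24.0 and 24.8 TPM in control replicates 1 to 4 and 30.3 to 34.6 TPM in cKO. Dcn, Ogn and Lum stand in both the mesenchyme list and the list of fibril partners.

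Of the other marker lists, cartilage genes summed to 105.5 to 142.7 TPM in cKO and 73.9 to 128.5 TPM in control, with 0 of 4 tested called and 4 of 8 under 1 TPM, among them Acan, the main cartilage proteoglycan. Without Hapln1, the most abundant of them, the sums were 16.1 to 17.3 TPM in cKO and 12.5 to 15.6 TPM in control and did not overlap. Macrophage markers (69.2 to 120.6 and 66.0 to 90.8 TPM), erythroid markers (2016 to 4321 and 2238 to 8137 TPM) and smooth muscle markers (1743 to 2290 and 1947 to 2317 TPM) overlapped between cKO and control, and Notch3 of the smooth muscle list was the 1 called marker among them. The mean was higher in cKO for 6 of 6 tested macrophage, 4 of 4 cartilage, 1 of 9 erythroid and 3 of 6 smooth muscle markers. Notch3 was also uneven among controls, at 10.4, 10.1, 14.4 and 14.7 TPM in control replicates 1 to 4 and 17.5 to 18.4 TPM in cKO. No marker of any list was at 0 in every library. The part of these cell types in the collagen differences was not tested.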

How the data were processed

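RNA of embryonic ventricles was sequenced in 4 cKO and 4 control libraries, grouped by the labels, and all carry the same batch label. The number of hearts behind each library is not given. The authors deposited 1 table of TPM values with 52778 rows, each column summing to 1000000. Per the submitters' processing notes, Trim Galore 0.6.7, HISAT2 2.2.1, StringTie 2.2.1, featureCounts and DESeq2 were used with GRCm38; which annotation was used and whether counting was stranded are not given in the sources used here, so reads of rows that overlap on opposite strands may not be separated. TPM keeps no read depth, so depth per library is unknown and the precision is that between replicate libraries.

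The log2(TPM + 1) values were fitted with limma 3.58.1 under R 4.3.3 (lmFit and eBayes with a trend, group as the only term, two-sided). Rows with a mean of at least 1 TPM were tested, and p-values were adjusted by Benjamini-Hochberg over all 15541 rows. Differences on this scale understate the change of low genes. Ratios of chains were compared with exact permutation tests. The procedure was tested on simulated data.

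The collagen genes, their classes, the pathway list and the marker lists were chosen with earlier results of these data known. Library values are given for called genes, for the 2 most abundant tested genes of each class and for Col2a1. Of the pathway list, called genes and Serpinh1, P4ha1 and Lox are named. Markers that were called, and Acan, Tnni1, Myh6 and Nppa, were named after their values were seen. Alternatives were a pseudocount of 0.1 or 5, no filter, a mean of at least 5 TPM, a replicate block, array weights, a fit with no variance trend, 3 other scalings (quantile, median-ratio, and a total free of mitochondrial and globin genes) and leaving out each library. A correction for GC content and length (known for 94.1% of tested rows) was chosen after seeing the data, as were marker sums without the most abundant gene; the median GC content was 49.8% for tested rows and 56.1% for tested collagen genes. Promoter windows were taken from a RefSeq table that matched 35 of the 44 genes. Figures were drawn with matplotlib 3.10.9.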

Additional observations from a re-analysis of the deposited data

Results flagged for a closer look

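In 4 of 66 groups examined (33 tested collagen genes in each group of 4 libraries), 1 library lay apart from the other 3 by Dixon's criterion, which chance meets in about 1 of 20 groups. Col14a1 was at 2.64 TPM in control replicate 1 and at 3.32 to 3.42 TPM in the other controls. Col9a3 was at 6.74 TPM in control replicate 2 and at 14.7 to 16.1 TPM in the others. Col16a1 was at 15.0 TPM in control replicate 2 and at 17.2 to 17.6 TPM in the others. Control replicate 2 also had the lowest control sum of the mesenchyme markers, at 1542 TPM against 1724 to 1816 TPM. The same held for the cartilage markers, at 73.9 TPM against 95.4 to 128.5 TPM, but not for the epicardial markers. Col12a1 was at 15.8 TPM in cKO replicate 2 and at 13.0 to 13.4 TPM in the other cKO libraries.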

How the results depend on the processing

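With no filter on low values, 2 collagen and 1 pathway gene were called higher, and medians were 0.17 for all collagen genes, 0.11 for fibrillar, 0.0116 for transmembrane and 0.169 for anchoring fibril and other collagens. Medians were 0.61 for short-chain collagens with a pseudocount of 0.1, and 0.19 for all collagens, 0.23 for FACIT and 0.29 for short-chain collagens with a pseudocount of 5. With a mean of at least 5 TPM they were -0.000283 for transmembrane and 0.63 for other collagens, and after quantile normalization 0.0757 for type IV. Without a trend, 2 pathway genes were called higher. With a replicate block, 5 collagen genes were called higher, and Col26a1 was lost (limma adjusted p = 0.0618). Of the pathway genes, 5 were called higher (Dcn, Fn1, Ogn, Pcolce and, in addition, Plod2), and Sparc, Thbs1, Mmp2 and Reck were lost. Deviations of same-numbered libraries correlated at -0.0107, 0.0674, 0.0576 and -0.0891. The best-correlated control had the same number for cKO replicates 2 and 3 and another number for replicates 1 and 4. These values do not settle whether the numbers pair the libraries. Leaving out each library gave 3 to 9 collagen genes higher, 2 to 11 pathway genes higher and 0 to 2 lower. Signs that reversed were all of uncalled values: Col15a1 was 0.000454 after rescaling, and over left-out libraries the log2 differences ran from -0.163 to 0.156 for Col15a1, -0.014 to 0.0427 for Col4a1 and -0.00804 to 0.0584 for Col4a2, and the log2 ratio differences from -0.0193 to 0.121 for Col3a1/Col1a1, -0.0175 to 0.0113 for Col4a1/Col4a2 and -0.0331 to 0.155 for Col9a1/Col9a3. No collagen gene was called lower under any alternative. The causes of these changes were not tested. Depth is unknown from TPM.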
